A study of Mus musculus with 6 samples.

Results

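Neutrophils are short-lived white blood cells that leave the blood through inflamed vessels, and 10 of the genes that build them or call them into tissue were followed in regenerating mouse liver. The 10 genes were Ngp, Camp, Ltf, Mpo and Elane, which encode granule proteins, S100a8 and S100a9, which encode the main cytosolic proteins of the neutrophil, Retnlg, a resistin-like gene of mature neutrophils, Cxcr2, the receptor that guides neutrophils along chemokine gradients, and Cxcl1, a ligand of that receptor. They were found by gene symbol, 10 of 16858 genes in the count table, and were chosen from this same comparison of genotypes with its results known, so their differences between genotypes are given as descriptions, and which of them passed the test over all genes is given once, as a count that supports nothing.

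The livers came from Aqp5+/+ mice (wild type, C57BL/6 in the study's methods) and Aqp5-/- mice, a line made with CRISPR/Cas9 that lacks aquaporin 5, a channel for water and hydrogen peroxide. All 6 livers were taken 72 h after removal of 70% of the liver, called partial hepatectomy (PHx), and the study describes its operated mice as 3-month-old males. Each genotype had 3 libraries of total RNA freed of ribosomal RNA, and no source says whether the 3 livers of a genotype belonged to separate mice or litters, so p-values measure only the spread between these libraries. Livers without PHx and the counts of Aqp5 itself were not analysed here.

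The libraries held between 7130831 and 15550006 counts, with Aqp5+/+ replicate 2 the shallowest. The 4 Y-linked genes Ddx3y, Eif2s3y, Uty and Kdm5d summed to 287 to 470 CPM (counts scaled to a library of 1000000) in the Aqp5+/+ libraries and 0.868 to 1.19 CPM in the Aqp5-/- libraries, so genotype and the presence of Y-linked RNA cannot be told apart in any value below. Aqp5-/- replicate 3 stood apart from the other 5 libraries: the 4 cholangiocyte markers Krt19, Epcam, Krt7 and Sox9 summed to 78.2 CPM there and to 4.3 to 20.1 CPM elsewhere. List results that moved without that library are given with and without it.

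As background, neutrophil granules are filled in the bone marrow in a fixed order. Promyelocytes make the primary (azurophil) granules with myeloperoxidase and neutrophil elastase, myelocytes and metamyelocytes make the specific granules with lactoferrin, cathelicidin and neutrophilic granule protein, and later cells make the gelatinase granules. Messenger RNA for most primary and specific granule proteins is low in mature blood neutrophils, whereas S100a8, S100a9, Cxcr2 and Retnlg remain transcribed there. In the injured liver, Cxcl1 can be made by hepatocytes, Kupffer cells and endothelial cells, and it draws neutrophils through Cxcr2.

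Levels per transcript length place the 10 genes on a common scale. Dividing CPM by the merged exon length in kilobases gives RPKM. In the Aqp5-/- livers, RPKM averaged 46.1 ± 32.6 for S100a9, 33.4 ± 8.6 for Cxcl1, 22.6 ± 22.2 for S100a8, 5.68 ± 5.58 for Retnlg and 2.29 ± 0.39 for Ngp (SD, n = 3). Cxcr2 at 1.58 ± 1.29, Ltf at 0.658 ± 0.0214, Mpo at 0.437 ± 0.391, Camp at 0.362 ± 0.307 and Elane at 0.165 ± 0.163 RPKM followed (SD, n = 3). No neighbours in this order differed by more than the larger of their SDs. In the Aqp5+/+ livers the order began with Cxcl1 at 27.2 RPKM, S100a9 at 12.0 RPKM and S100a8 at 3.84 RPKM and ended with Ngp at 0.0222 RPKM, so that Ngp held the last place there and the fifth place in Aqp5-/-.

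**Figure D1:**
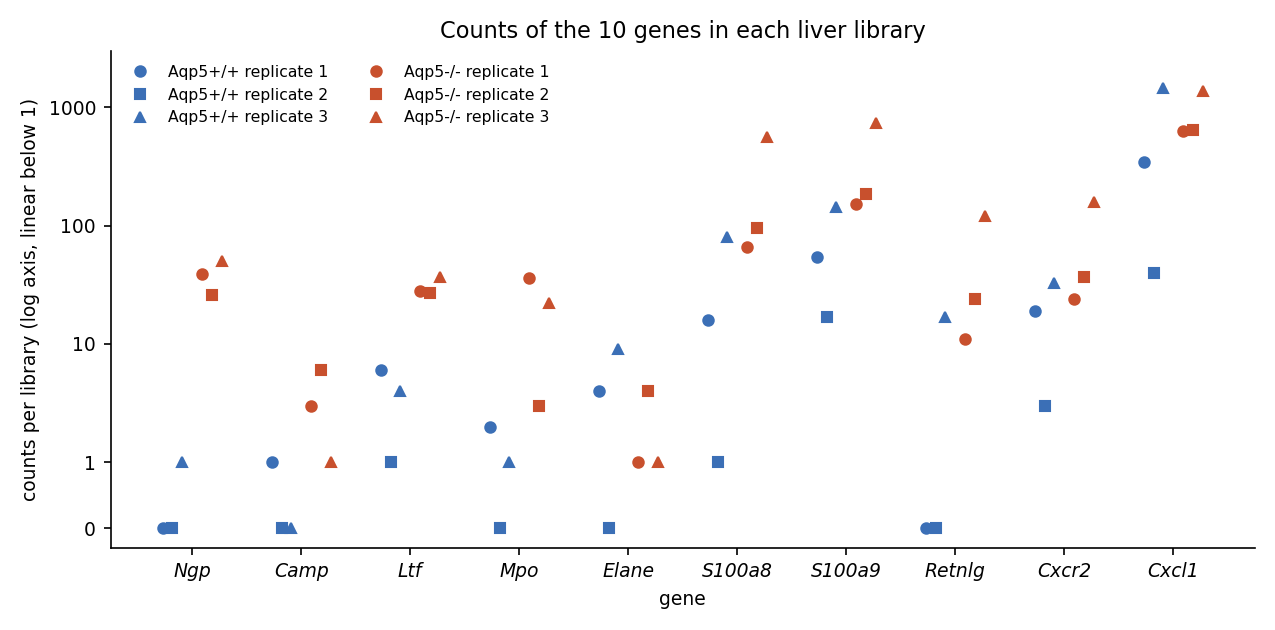
Raw counts of the 10 genes (vertical axis, logarithmic above 1 and linear below) in each of the 6 libraries, with blue for Aqp5+/+, red for Aqp5-/- and the marker shape giving the replicate. Ngp sits at 0 or 1 in Aqp5+/+ and at 26 to 50 in Aqp5-/-, whereas the points of Cxcl1 are intermixed.

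Among the specific granule genes, Ngp had the widest gap between genotypes. Ngp encodes neutrophilic granule protein, a relative of the cathelicidins and cystatins, and lies on chromosome 9 (chr9:110419747-110423012, plus strand, GRCm38, GENCODE vM21). Taking the replicates in numerical order here and below, its counts were 0, 0 and 1 in Aqp5+/+ and 39, 26 and 50 in Aqp5-/-. The groups did not overlap, and nearly all Ngp reads of the data set came from Aqp5-/- livers. Scaled for depth, the level was 0.0271 ± 0.047 CPM in Aqp5+/+ and 2.8 ± 0.476 CPM in Aqp5-/- (SD, n = 3). The ratio of pooled rates was 87.3, with an exact conditional 95% interval of 15.4 to 3480 that covers counting error only, because the Aqp5+/+ side rests on a single read.

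Ltf encodes lactoferrin, an iron-binding protein of the specific granules that epithelia also make (chr9:111019271-111042767, plus strand). Its counts were 6, 1 and 4 in Aqp5+/+ and 28, 27 and 37 in Aqp5-/-. Every Aqp5-/- library lay above every Aqp5+/+ library, at 0.326 ± 0.176 CPM against 2.27 ± 0.0738 CPM (SD, n = 3), and the 3 Aqp5-/- libraries differed from each other by only 1.07-fold. The pooled ratio was 6.35 (counting interval 3.39 to 13.2), and Ltf was thus detected in all 6 livers, unlike Ngp.

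Camp encodes the mouse cathelicidin, from which an antimicrobial peptide is cut (chr9:109847379-109849617, minus strand). Camp had 1, 0 and 0 counts in Aqp5+/+ and 3, 6 and 1 in Aqp5-/-. These few reads leave the groups overlapping once depth is taken into account, since the lowest Aqp5-/- library was at 0.0594 CPM and the highest Aqp5+/+ library at 0.0838 CPM. The pooled ratio of 7.59 had a counting interval of 1.08 to 330. Camp, Ngp and Ltf all lie on chromosome 9, with 570 kb between Camp and Ngp and 596 kb between Ngp and Ltf.

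The promoter windows of Ngp and Ltf are shown because these 2 genes had the steadiest levels in the Aqp5-/- livers. Each window runs from 250 bases before to 50 bases after the start of the RefSeq gene model (GRCm38.p6), 5′ to 3′ on the gene's own strand, at chr9:110419558-110419857 for Ngp and chr9:111019042-111019341 for Ltf. Capitals mark matches, on either strand, to a C/EBP motif (TTGCNNAA), an ETS core (GAGGAA) and an NF-kB motif (3 G, any 5 bases, then 2 C), where N is any base and matches may overlap.
Ngp: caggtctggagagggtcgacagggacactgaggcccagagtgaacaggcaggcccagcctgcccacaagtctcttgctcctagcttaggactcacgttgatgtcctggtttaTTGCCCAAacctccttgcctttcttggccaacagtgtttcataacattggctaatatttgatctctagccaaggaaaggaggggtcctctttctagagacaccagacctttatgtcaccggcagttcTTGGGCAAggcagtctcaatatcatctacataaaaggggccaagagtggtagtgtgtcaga
Ltf: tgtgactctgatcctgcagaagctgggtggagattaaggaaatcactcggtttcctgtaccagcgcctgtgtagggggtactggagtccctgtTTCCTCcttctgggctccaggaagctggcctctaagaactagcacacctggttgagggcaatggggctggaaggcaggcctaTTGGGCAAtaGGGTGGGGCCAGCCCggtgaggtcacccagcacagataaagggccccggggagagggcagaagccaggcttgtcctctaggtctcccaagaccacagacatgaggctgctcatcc
Positions are of a match's first base, with -1 the base before the RefSeq start. For Ngp and Ltf that start lies downstream of the GENCODE gene start given above. Ngp held C/EBP matches at -138 and -11. Ltf held a C/EBP match at -75, an ETS core at -157 and 4 overlapping NF-kB matches from -65 on. Promoters of all 10 genes were in the table. The C/EBP motif was found in 4 of these 10 (Ngp, Ltf, S100a9 and Retnlg) and in 10.8% of the 32851 promoter windows of the table. The ETS core was in 5 of 10 (Ltf, Mpo, Elane, S100a8 and Cxcr2) against 28.3%, and the NF-kB motif in 5 of 10 (Camp, Ltf, Mpo, Cxcr2 and Cxcl1) against 50.8%. C/EBP and ETS factors are known to drive granule genes in myeloid precursors, but a match here is a description of letters and not of binding.

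The primary granule genes Mpo and Elane had opposite directions. Mpo encodes myeloperoxidase, the enzyme that makes hypochlorous acid (chr11:87793581-87804413, plus strand). Its counts were 2, 0 and 1 in Aqp5+/+ and 36, 3 and 22 in Aqp5-/-. The groups did not overlap in CPM, but narrowly, with 0.261 CPM in Aqp5-/- replicate 2 and 0.168 CPM in Aqp5+/+ replicate 1. Levels among the Aqp5-/- livers spanned 11.2-fold, far more than for Ngp or Ltf. The pooled ratio was 15.4 (counting interval 5.04 to 76.9). The annotation places an antisense gene, Gm11505, inside Mpo, and the strand setting of the counting is not given in the sources used here, so reads of that gene cannot be told apart from those of Mpo.

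Elane encodes neutrophil elastase, a serine protease of the same granules (chr10:79886247-79888215, plus strand). Elane had 4, 0 and 9 counts in Aqp5+/+ and 1, 4 and 1 in Aqp5-/-. The groups overlapped at 0.356 ± 0.366 CPM against 0.163 ± 0.16 CPM (SD, n = 3), with a pooled ratio of 0.351 (counting interval 0.109 to 0.988). Elane was the 1 gene of the 10 with a lower mean in Aqp5-/-. Prtn3, which encodes proteinase 3 of the same granules, had 167, 2 and 378 counts in Aqp5+/+ and 134, 174 and 23 in Aqp5-/-, so that its groups overlapped as well.

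S100a8 and S100a9 encode the subunits of calprotectin, the most abundant protein complex of the neutrophil cytosol, which monocytes also make. The genes lie 22.6 kb apart on chromosome 3 (chr3:90668978-90670035, plus strand, and chr3:90692632-90695721, minus strand). S100a8 had 16, 1 and 80 counts in Aqp5+/+ and 66, 96 and 563 in Aqp5-/-. Its groups overlapped, because Aqp5+/+ replicate 3 (6.51 CPM) lay above Aqp5-/- replicate 1 (5.35 CPM). S100a9 had 54, 17 and 144 counts in Aqp5+/+ and 153, 186 and 734 in Aqp5-/-. Its groups touched without overlapping, at 11.7 CPM in Aqp5+/+ replicate 3 and 12.4 CPM in Aqp5-/- replicate 1. Group means were 2.67 ± 3.38 and 15.7 ± 15.4 CPM for S100a8 and 6.26 ± 4.82 and 24.0 ± 17.0 CPM for S100a9 (SD, n = 3).

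Both genes were highest in Aqp5-/- replicate 3 and lowest in Aqp5+/+ replicate 2. In the edgeR fit over all genes, their log2 fold changes of 2.50 (SE 1.02) and 1.92 (SE 0.64) dropped to 1.30 and 1.16 when Aqp5-/- replicate 3 was left out, and became 4.23 and 2.74 when Aqp5+/+ replicate 3 was left out. Of the S100a8 and S100a9 reads together, S100a8 made up in 5 libraries between 22.9% (exact 95% interval 13.7 to 34.4%) in Aqp5+/+ replicate 1 and 43.4% (40.7 to 46.2%) in Aqp5-/- replicate 3. In Aqp5+/+ replicate 2 it was 5.56% of 18 reads, with an interval of 0.141 to 27.3%.

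Retnlg encodes a resistin-like protein found in mouse neutrophils and their marrow precursors (chr16:48872621-48874496, plus strand). Retnlg had 0, 0 and 17 counts in Aqp5+/+ and 11, 24 and 120 in Aqp5-/-. Again Aqp5+/+ replicate 3 reached into the Aqp5-/- range, with 1.38 CPM against 0.892 CPM in Aqp5-/- replicate 1. The pooled ratio was 6.92 (counting interval 4.19 to 12.2), and the fitted log2 fold change of 2.74 (SE 1.31) was 1.56 without Aqp5-/- replicate 3 and 8.33 without Aqp5+/+ replicate 3, where the Aqp5+/+ side was left with no read.

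Cxcr2, the chemokine receptor, had 19, 3 and 33 counts in Aqp5+/+ and 24, 37 and 157 in Aqp5-/- (chr1:74153989-74161246, plus strand). The ranges overlapped, at 1.58 ± 1.12 CPM and 4.83 ± 3.94 CPM (SD, n = 3). The pooled ratio was 3.01 (counting interval 2.23 to 4.12), and the fitted log2 fold change was 1.58 (SE 0.76), or 0.66 without Aqp5-/- replicate 3. Ranked by CPM, the 6 libraries stood in the same order for Cxcr2 and S100a8, and for Retnlg apart from its ties at 0, from Aqp5+/+ replicate 2 as the lowest to Aqp5-/- replicate 3 as the highest.

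Its ligand had another order. Cxcl1 encodes the chemokine KC, known to rise early in injured liver (chr5:90891241-90893115, plus strand). Cxcl1 had 344, 40 and 1455 counts in Aqp5+/+ and 632, 639 and 1365 in Aqp5-/-. The highest and the lowest CPM both belonged to Aqp5+/+, at 118 in replicate 3 and 6.0 in replicate 2, and the 3 Aqp5-/- livers lay between them within 1.58-fold of each other. Means of 51.1 ± 59.4 and 62.6 ± 16.1 CPM (SD, n = 3) gave a log2 fold change of 0.29 (SE 0.81). That value was -0.24 without Aqp5+/+ replicate 2 and 1.82 without Aqp5+/+ replicate 3. It was -0.0 without Aqp5+/+ replicate 1 and 0.06 without Aqp5-/- replicate 3, so its direction depended on which library was left out.

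The windows of S100a9 and Cxcl1 are given with the same marks, as examples of a cytosolic gene and the chemokine gene, at chr3:90695672-90695971 and chr5:90890995-90891294 of GRCm38.p6.
S100a9: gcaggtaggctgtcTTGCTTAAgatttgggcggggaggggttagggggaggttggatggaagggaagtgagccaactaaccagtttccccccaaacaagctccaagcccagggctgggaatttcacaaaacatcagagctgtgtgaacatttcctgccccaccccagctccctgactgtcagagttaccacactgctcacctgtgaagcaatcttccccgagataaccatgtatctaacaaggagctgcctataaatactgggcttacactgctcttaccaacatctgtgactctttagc
Cxcl1: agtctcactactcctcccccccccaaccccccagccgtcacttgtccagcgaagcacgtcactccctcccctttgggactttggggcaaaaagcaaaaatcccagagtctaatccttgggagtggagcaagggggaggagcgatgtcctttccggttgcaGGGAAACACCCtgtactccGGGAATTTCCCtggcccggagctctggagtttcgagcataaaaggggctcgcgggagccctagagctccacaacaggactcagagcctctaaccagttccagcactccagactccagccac
S100a9 held a C/EBP match at -236. Cxcl1 held no C/EBP match and no ETS core but NF-kB matches at -90 and -71, each overlapping a match on the other strand.

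Set against the whole table, 7 of the 10 genes were tested. The edgeR quasi-likelihood test called 19 of 12353 tested genes higher in Aqp5-/- at an adjusted p under 0.05 (0.154%), and of the 7 it called Ngp alone. That call was lost when any library was left out, without a filter, with the filter at a mean of 1 CPM and with the replicate number as a block. None was called lower, as were 22 genes of the table (0.178%). Ngp, Ltf, S100a8 and S100a9 passed the looser lines of an unadjusted p under 0.05 and a log2 fold change over 1, which 2.88% of tested genes passed as higher and 2.2% as lower. Among the 7 tested genes, groups did not overlap for Ngp, Ltf and S100a9, all higher in Aqp5-/-, against 6.93% of tested genes, with 7.8% lower. The groups of Mpo, which was not tested, did not overlap either. Nothing is read from these counts, since the genes were selected on this contrast. Camp, Mpo and Elane had too few reads to pass the filter. Ngp and Ltf, with under 10 counts in every Aqp5+/+ library, passed it only through their Aqp5-/- counts. Without Aqp5-/- replicate 3, Ngp and Ltf were past the looser lines, with log2 fold changes of 5.98 and 2.71, and S100a8 and S100a9 were not.

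Sums over the granule genes and over the genes of mature cells ranked the libraries differently. Summed over Ngp, Camp, Ltf, Mpo and Elane, levels were 1.09, 0.15 and 1.22 CPM in Aqp5+/+ and 8.68, 5.73 and 6.59 CPM in Aqp5-/-. These sums lay above every Aqp5+/+ liver in all 3 Aqp5-/- livers, for 5 genes chosen on this contrast. Prtn3, a primary granule gene outside the sums, had overlapping groups. It was at 14.0, 0.3 and 30.7 CPM in Aqp5+/+ and 10.9, 15.1 and 1.37 CPM in Aqp5-/-. That is above these sums in every library but Aqp5-/- replicate 3, and Prtn3 did not share their separation. Among the 5 summed genes, the groups of Camp and Elane overlapped too. Ngp and Ltf, which carry most of the sum, spanned 1.4-fold and 1.07-fold among the Aqp5-/- livers, whereas Camp, Mpo and Elane spanned 8.77-fold, 11.2-fold and 5.85-fold. Summed over S100a8, S100a9, Retnlg and Cxcr2, levels were 7.45, 3.15 and 22.3 CPM in Aqp5+/+ and 20.6, 29.8 and 93.5 CPM in Aqp5-/-, and the 4 genes spanned 3.51-fold to 7.99-fold there. Here Aqp5+/+ replicate 3 and Aqp5-/- replicate 1 stood side by side, although their granule sums were 1.22 and 8.68 CPM. In bulk liver, a different number of neutrophils and a different amount of RNA per neutrophil cannot be told apart.

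**Figure D2:**
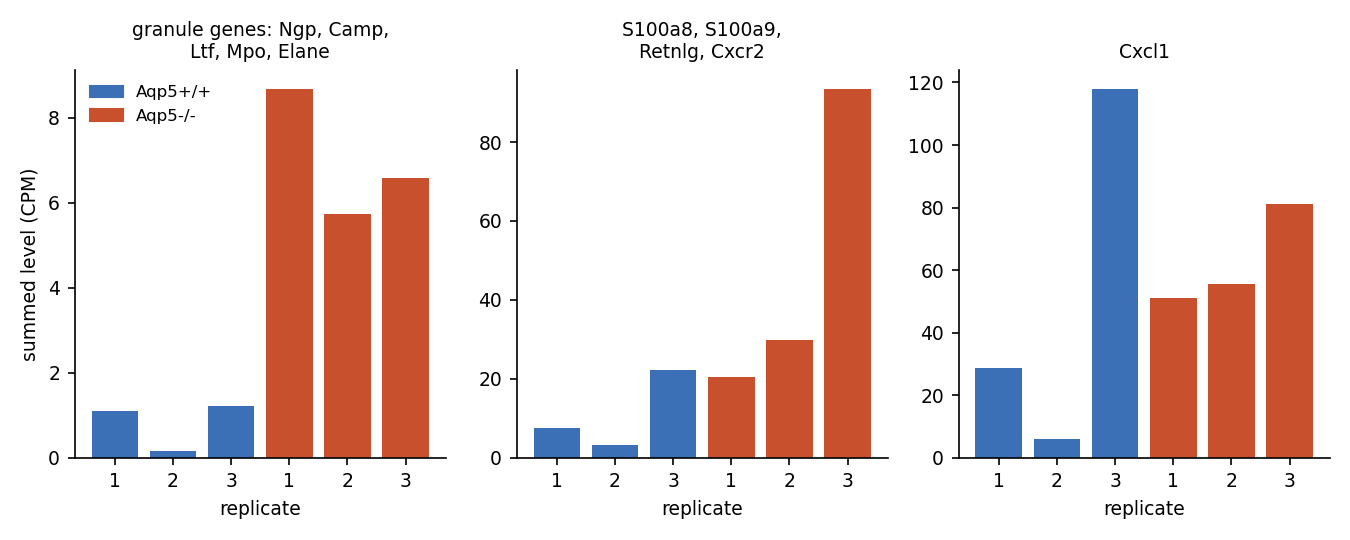
Summed levels in CPM (vertical axes, each starting at 0) of the 5 granule genes, of S100a8, S100a9, Retnlg and Cxcr2, and of Cxcl1 alone, with 1 bar per library (blue for Aqp5+/+, red for Aqp5-/-). The sums of these 5 chosen granule genes, which leave out Prtn3, lie at 0.15 to 1.22 CPM in Aqp5+/+ and 5.73 to 8.68 CPM in Aqp5-/-. The middle panel is led by Aqp5-/- replicate 3 at 93.5 CPM, and the highest Cxcl1 bar is Aqp5+/+ replicate 3 at 118 CPM.

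The ratio of a granule gene to a cytosolic gene within a library does not depend on depth. Ngp made up 37.1% (exact 95% interval 27.9 to 47.1%) of the reads of Ngp and S100a8 together in Aqp5-/- replicate 1, 21.3% (14.4 to 29.6%) in replicate 2 and 8.16% (6.11 to 10.6%) in replicate 3. Ngp counts were 39, 26 and 50 there while those of S100a8 were 66, 96 and 563, so the share followed S100a8. In Aqp5+/+ replicate 3 it was 1.23% (0.0313 to 6.69%) of 81 reads, and in the other Aqp5+/+ libraries it was 0 of 16 and 0 of 1 reads, for which the upper limits of 20.6% and 97.5% allow little comparison. Ltf against S100a9 ran the same way in Aqp5-/-, at 15.5% (10.5 to 21.6%), 12.7% (8.52 to 17.9%) and 4.8% (3.4 to 6.55%), and was 10% (3.76 to 20.5%), 5.56% (0.141 to 27.3%) and 2.7% (0.741 to 6.78%) in Aqp5+/+. For both pairs of genes the intervals of Aqp5+/+ replicate 3 lay below those of Aqp5-/- replicates 1 and 2 and overlapped that of Aqp5-/- replicate 3, while those of Aqp5+/+ replicates 1 and 2 overlapped the interval of at least 1 Aqp5-/- library. The same shares were taken for the genes of mature cells. Retnlg was 10.6% (6.27 to 16.4%) of the reads of Retnlg and S100a9 in Aqp5+/+ replicate 3 and 6.71 to 14.1% in the Aqp5-/- livers, and Cxcr2 was 15 to 26% of the reads of Cxcr2 and S100a9 in Aqp5+/+ and 13.6 to 17.6% in Aqp5-/-. Retnlg had 0 reads beside 54 and 17 of S100a9 in the other Aqp5+/+ libraries, which allows shares of up to 6.6% and 19.5%.

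Other genes of the neutrophil and of its recruitment came from 8 lists of 113 genes, of which 101 were in the table and 62 were tested. None passed the adjusted threshold in edgeR in either direction, whereas 19 were higher and 1 lower at an unadjusted p under 0.05, and DESeq2 called 3 of 96 higher and 0 lower, beside 0.699% of all genes called higher by it. Past the looser lines were 18 higher and 1 lower of the 62, beside 2.88% and 2.2% of all tested genes. The filter admits genes with enough reads in 1 genotype alone, such as Mmp8 in Aqp5-/-, both here and over all genes. The median log2 fold change of the 62 was 0.69, beside 0.01 for all genes. Without Aqp5-/- replicate 3, 6 of 62 were higher past the lines, beside 1.77% of all genes, and the median was 0.43.

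**Figure D3:**
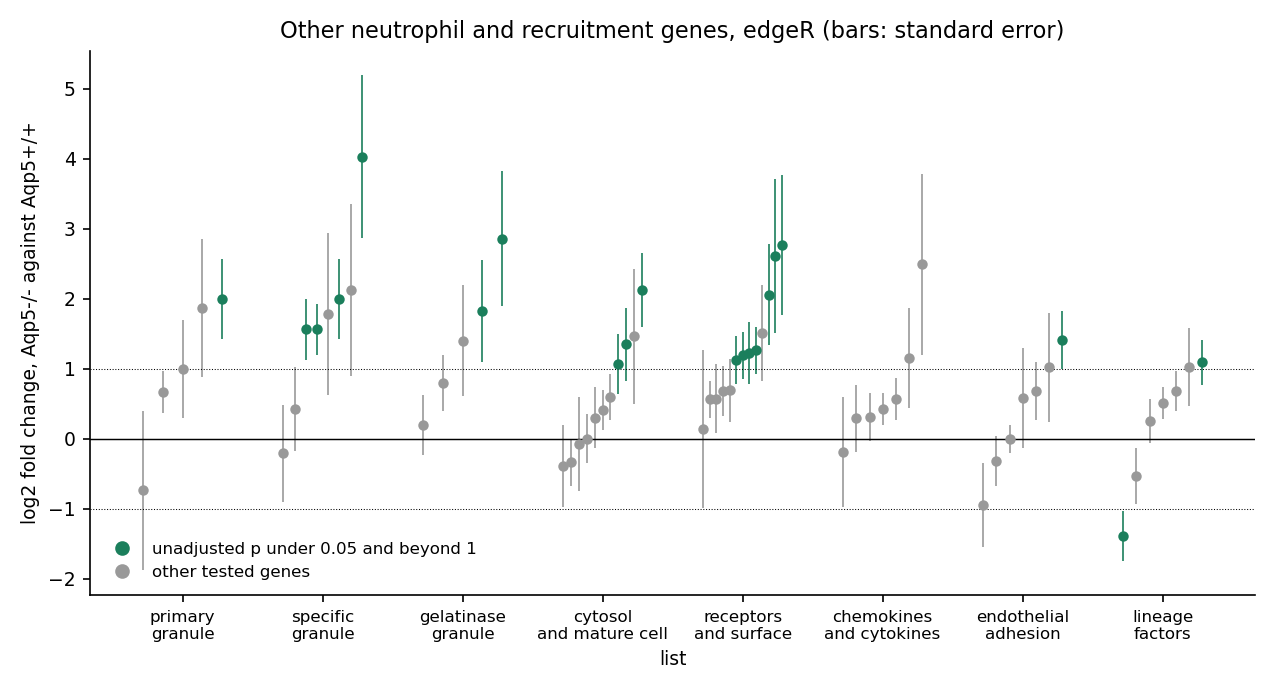
Log2 fold changes, Aqp5-/- against Aqp5+/+, of the tested genes of the 8 neutrophil and recruitment lists, with standard errors from edgeR as bars and dotted lines at 1 and -1. Green points, with an unadjusted p under 0.05 beyond those lines, number 7 among receptors and surface proteins and 0 among chemokines and cytokines.

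Among specific granule genes, 4 of 8 tested were higher past the looser lines and 0 lower, with a median log2 fold change of 1.67, or 3 of 8 with a median of 0.59 without Aqp5-/- replicate 3. Cybb, which encodes the membrane subunit of the phagocyte NADPH oxidase and is also made by macrophages, had 445, 173 and 475 counts in Aqp5+/+ and 1227, 620 and 2477 in Aqp5-/-. Its log2 fold change was 1.56 (SE 0.37, edgeR adjusted p = 0.25). Lcn2, which encodes the siderophore-binding lipocalin of these granules and of hepatocytes in the acute phase, ran from 454 to 20777 counts in Aqp5+/+ and from 7534 to 96830 in Aqp5-/-, with overlapping groups (log2 fold change 1.78, SE 1.16, edgeR adjusted p = 0.67). Hp, the haptoglobin gene, which hepatocytes also express, overlapped too (log2 fold change 0.42, SE 0.60). Lyz2, which the primary granule list holds as well, was 1 of the 4 past the lines, as was Cybb. Mmp8, neutrophil collagenase, named after its values were seen, was another. It had 7, 2 and 5 counts against 14, 19 and 325, so that most of its reads came from Aqp5-/- replicate 3. With under 10 counts in every Aqp5+/+ library, Mmp8 passed the filter and entered the list count only through Aqp5-/-.

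Of 5 tested primary granule genes, 1 was higher past the lines and 0 lower, with a median of 1.00, or 0.10 without Aqp5-/- replicate 3. That gene was Lyz2, the lysozyme gene of neutrophils, monocytes and macrophages, with 658, 185 and 674 counts in Aqp5+/+ and 1289, 951 and 6130 in Aqp5-/- (log2 fold change 2.00, SE 0.57, edgeR adjusted p = 0.35). Ctsc, the protease that activates the granule serine proteases, had a log2 fold change of 0.67 (SE 0.30). Cd63, a granule membrane protein found in many cells, was at 41, 43 and 621 counts in Aqp5-/- against 66, 6 and 66. In the gelatinase list 2 of 5 were higher and 0 lower (median 1.40). Itgam, the integrin chain CD11b, had 66, 29 and 99 counts in Aqp5+/+ against 104, 125 and 1883 in Aqp5-/- (log2 fold change 2.86, SE 0.96). Its log2 fold change was 0.68 (SE 0.39) without Aqp5-/- replicate 3. Adam8, Slc11a1 and Qsox1 had log2 fold changes of 1.40, 0.80 and 0.20, with overlapping groups. Without Aqp5-/- replicate 3, 0 of the 5 gelatinase genes were past the lines (median 0.44), and without Aqp5+/+ replicate 1 0 of 6 were.

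The cytosolic and mature-cell list had 3 of 11 higher and 0 lower (median 0.41), or 1 of 11 (median 0.11) without Aqp5-/- replicate 3. Anxa1, which encodes annexin A1, had 133, 33 and 91 counts against 149, 129 and 618, whereas G0s2, Msrb1 and Lcp1 had log2 fold changes of -0.39, -0.34 and 0.41. Receptors and surface proteins held the most, 7 of 13 higher and 0 lower (median 1.19), or 1 of 13 (median 0.64) without Aqp5-/- replicate 3 and 4 of 14 without Aqp5+/+ replicate 1 or replicate 2. Fpr1, a receptor for formylated bacterial and mitochondrial peptides, had 112, 47 and 87 counts in Aqp5+/+ and 207, 155 and 438 in Aqp5-/- (log2 fold change 1.26, SE 0.33, edgeR adjusted p = 0.29). Itgb2, the common beta chain of the leukocyte integrins, had 271, 161 and 259 against 503, 344 and 1288, and Itgal, an alpha chain that lymphocytes also carry, had a log2 fold change of 0.56 (SE 0.26). The Fcgr3 gene, for an Fc receptor, was at 107, 44 and 92 against 190, 98 and 499 counts. The most specific surface markers were near the limit of detection, and were named after their values were seen: Ly6g had 0, 0 and 5 counts against 9, 4 and 7, and Csf3r, the receptor for the neutrophil growth factor, had 11, 8 and 3 against 0, 13 and 23.

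Chemokines and cytokines gave 0 of 7 past the lines in either direction, with a median of 0.42. Cxcl12, which holds neutrophils in the marrow through Cxcr4, was the most abundant of them and had a log2 fold change of 0.31 (SE 0.34). The macrophage growth factor Csf1 was at 0.56 (SE 0.30), Mif at 0.42 (SE 0.23) and Cxcl10 at 0.29 (SE 0.48). The other Cxcr2 ligands, also named after their values were seen, were sparse: Cxcl2 had 8, 0 and 15 counts against 4, 4 and 73, Cxcl5 had 0, 0 and 1 against 0, 5 and 267, and Cxcl3 was at 0 in every library. Of the endothelial adhesion genes, Vcam1 was 1 of 7 higher past the lines (log2 fold change 1.41, SE 0.42, edgeR adjusted p = 0.38) and was at 0.75 (SE 0.27), with 0 of 7 past the lines, without Aqp5-/- replicate 3. In all 6 libraries Icam1, Pecam1 and Cd99l2 had log2 fold changes of 0.68, -0.32 and -0.01.

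Transcription factors of the granulocyte lineage gave 1 higher and 1 lower of 7 (median 0.51), both named after their values were seen, and 0 higher without Aqp5+/+ replicate 3. Spi1, which encodes PU.1, an ETS factor of neutrophils and macrophages, had 77, 49 and 51 counts in Aqp5+/+ and 154, 132 and 237 in Aqp5-/- (log2 fold change 1.09, SE 0.32). Cebpe, the factor that specific granule genes need in marrow precursors, had 109, 64 and 81 counts in Aqp5+/+ and 48, 35 and 45 in Aqp5-/- (log2 fold change -1.39, SE 0.36, edgeR adjusted p = 0.29), a direction opposite to that of Ngp and Ltf. Cebpa, Cebpb, Irf8 and Zeb2 had log2 fold changes of -0.54, 0.68, 0.25 and 0.51.

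A further 39 genes of the 8 lists were in the table with too few reads to be tested. Of these, 31 had a higher mean CPM in Aqp5-/-, 5 were at 0 in every library, and 2 were at 0 in all Aqp5+/+ and above 0 in all Aqp5-/- libraries. Those 2, named after their values were seen, were Padi4, which encodes the enzyme that citrullinates histones in neutrophil extracellular traps, with 6, 4 and 4 counts in Aqp5-/-, and Stfa2l1, a stefin of neutrophils with near-identical relatives that could share its reads, with 4, 4 and 22. The same shares over all untested genes were not computed, so nothing about neutrophils is read from these counts. Zeros also come more easily in a shallow library, and Aqp5+/+ replicate 2 was the shallowest.

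Markers of macrophages and monocytes were higher in Aqp5-/- beside these genes. Of 8 tested Kupffer cell markers 7 were higher past the looser lines and 0 lower, by edgeR (0 called at the adjusted threshold, 4 by DESeq2), and their sum was 346 to 603 CPM in Aqp5+/+ and 734 to 1280 CPM in Aqp5-/-. Cd5l, a secreted Kupffer cell protein, had 2154, 594 and 1607 counts against 3976, 2384 and 5506, and Marco, a scavenger receptor, 1420, 227 and 484 against 2290, 1442 and 8579. C1qb, a complement subunit, had a log2 fold change of 1.24 (SE 0.25), and the Kupffer lectin Clec4f one of 0.52 (SE 0.34). Of 6 monocyte markers 3 were higher and 0 lower. Their sum was 52.7 to 88.0 CPM in Aqp5+/+, 153 and 114 CPM in Aqp5-/- replicates 1 and 2, and 477 CPM in Aqp5-/- replicate 3. Lyz2, also counted in the primary and specific granule lists, was 1 of these 3. It made up the largest part of each sum, with 55.1, 27.8 and 54.8 CPM in Aqp5+/+ and 105, 82.6 and 364 CPM in Aqp5-/-. Without Aqp5-/- replicate 3, 4 of 8 Kupffer cell and 1 of 6 monocyte markers were past the lines. So were 3 of 8 Kupffer cell markers without Aqp5+/+ replicate 2 and 1 of 6 monocyte markers without Aqp5+/+ replicate 3. The part of monocytes and macrophages in S100a8, S100a9 and the other genes that these cells share with neutrophils was not tested.

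**Figure D4:**
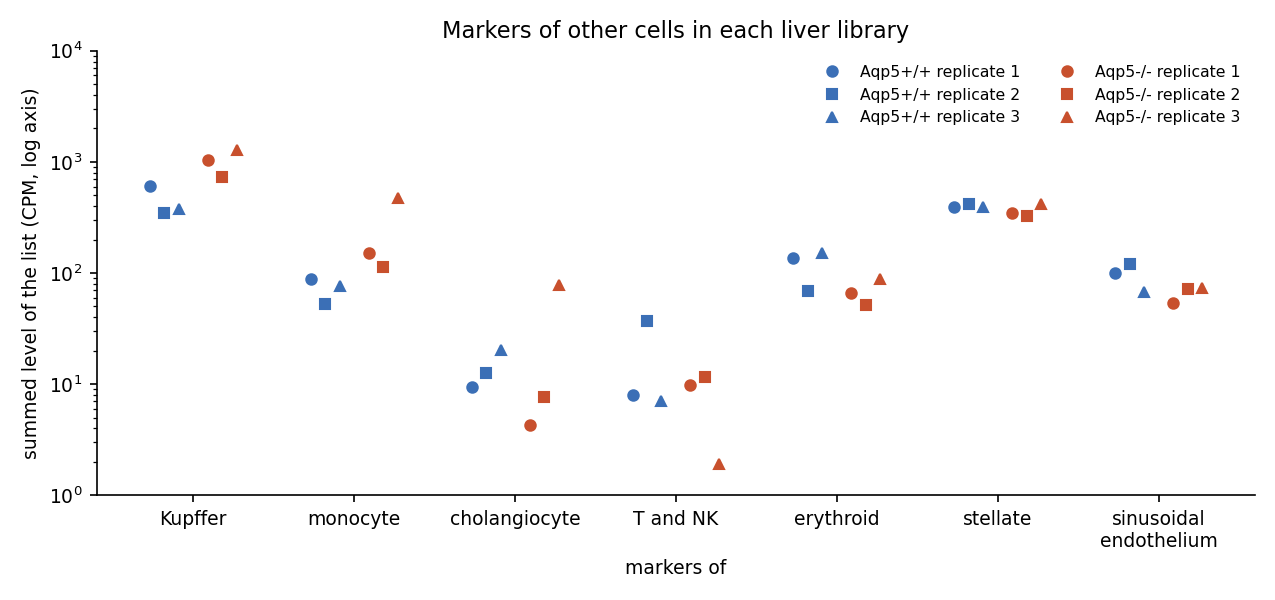
Summed levels in CPM (vertical axis, logarithmic) of markers of 7 other cell types in each library, with blue for Aqp5+/+, red for Aqp5-/- and the marker shape giving the replicate. Kupffer cell and monocyte sums are higher in every Aqp5-/- library than in any Aqp5+/+ library, and the cholangiocyte sum of 78.2 CPM belongs to Aqp5-/- replicate 3. The monocyte list holds Lyz2, which is also in the primary and specific granule lists.

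T and NK cell markers summed to 6.99 to 36.8 CPM in Aqp5+/+ and 1.9 to 11.6 CPM in Aqp5-/-, with overlapping ranges and 0 of 6 past the lines. The hepatocyte markers summed to 69200 to 118000 CPM in Aqp5+/+ and 105000 to 111000 CPM in Aqp5-/-, and 0 of 7 were past the lines. Of the eosinophil, basophil and mast cell markers, Ear2, which has close relatives that could share its reads and which macrophages express too, was higher past the lines with a log2 fold change of 1.75 (SE 0.59), or 1.42 and not past them without Aqp5-/- replicate 3, while Cpa3 and Prss34 were at 0 in every library. Platelet markers gave 0 of 3, stellate cell markers 0 of 4, sinusoidal endothelial markers 1 of 4 lower (Stab2, a scavenger receptor, log2 fold change -2.42, SE 0.86) and cholangiocyte markers 2 of 4 higher, Krt19 and Krt7, whose groups overlapped. Without Aqp5-/- replicate 3, 0 of 4 endothelial markers were lower, and the cholangiocyte list turned, with 0 higher, 1 lower and a median of -0.14 in place of 2.46. In the erythroid list Alas2, for heme synthesis in red cell precursors, was called lower (722, 321 and 989 counts against 210, 147 and 185, log2 fold change -2.21, SE 0.28, edgeR adjusted p = 0.025), a call lost with the replicate number as a block (adjusted p = 0.057 in edgeR) and without Aqp5+/+ replicate 1, Aqp5+/+ replicate 3 or Aqp5-/- replicate 2 (0.151, 0.0761 and 0.124). The globin genes Hba-a1, Hbb-bs and Hbb-bt had log2 fold changes of -0.44, 0.23 and -0.36.

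The genes whose log2 CPM over the 6 libraries was most like the mean of the 10 genes were Srp19 (Pearson r = 0.998), Mapre2 (0.993), Bmper (0.993), Gstt3 (0.992), Ptplad2 (0.991), Atmin (0.991), Prune (0.989), Vps26a (0.986), Npm1 (0.986) and Hspa4l (0.985). None belongs to the neutrophil lists, and 402 of 11866 genes had r over 0.9, so that likeness over 6 libraries is common in these data. With ranks in place of values, 5 of the 10 were the same. The mean profile, in log2 units around the average of the libraries, was -0.93, -2.03 and 0.01 in Aqp5+/+ and 0.68, 0.82 and 1.46 in Aqp5-/-. Bmper, a secreted regulator of BMP signals, spanned the widest range of the 10, with 0.921, 0.0 and 5.37 CPM in Aqp5+/+ and 14.8, 31.1 and 40.4 CPM in Aqp5-/-, whereas Srp19, a subunit of the signal recognition particle, ran only from 11 to 17.7 CPM.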

How the data were processed

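Total RNA of liver was depleted of ribosomal RNA and sequenced. According to the submitters' processing notes and the study's methods, the authors trimmed reads with cutadapt 1.9.3, aligned them to mm10 with HISAT2 2.0.4 and counted them per gene with HTSeq, and the deposited counts used here are those raw whole numbers (6 columns). A further 6 columns of values normalized by the authors were not used. The removal kit named in the labels differs from that in the methods, and the strand setting of the counting is not given in the sources used here. Of 16858 genes, 16666 matched GENCODE vM21 (GRCm38, the assembly of mm10), which supplied positions and merged exon lengths for RPKM.

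Genes were filtered in edgeR 4.0.16 (R 4.3.3, filterByExpr, minimum count 10, minimum total 15), leaving 12353, scaled by TMM, and compared by genotype with the robust quasi-likelihood test and Benjamini-Hochberg adjustment over all 12353. The common biological coefficient of variation was 0.371. CPM were scaled by TMM, and log2 CPM for likeness used a prior count of 2. Intervals on counts were exact at 95% and cover counting error only. The scripts were tested on simulated data. Alternatives were DESeq2 1.42.0, RLE factors, library totals, no filter, a mean of at least 1 CPM, a block on the replicate number, and the omission of each library in turn. Promoter letters were taken from RefSeq.

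The 10 genes and all lists were chosen with earlier results of these data known. Names besides the 10 genes were drawn from the up to 4 most abundant genes of each list, any list gene past the adjusted threshold, the 10 most alike genes, and those said to be named after their values were seen. Of the lists, 20 were used, 1 of which is not reported here, and a list gene without a line in the table was not analysed here.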

Additional observations from a re-analysis of the deposited data

How the results depend on the processing

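Genes called higher in Aqp5-/- numbered 19 with edgeR, 113 with DESeq2, 11 without a filter and 0 to 22 when a library was left out. Genes higher past the looser lines numbered 356 (272 lower), 548 (377 lower) with DESeq2, 547 (190 lower) with library totals alone, which moved the median log2 fold change of all genes to 0.17, and 222 to 549 when a library was left out, with 222 without Aqp5-/- replicate 3. Of the 10 genes, Ngp was called with DESeq2, RLE factors and library totals, and 0 were called without a filter, with the filter at a mean of 1 CPM, or when any library was left out (0 to 0). Those past the looser lines numbered 4, and 2 (without Aqp5-/- replicate 3) to 8 (without Aqp5+/+ replicate 3) when a library was left out. Other neutrophil genes past these lines numbered 18 higher and 1 lower, with 6 to 23 higher and 1 to 2 lower when a library was left out. The log2 fold change of Cxcl1, 0.29, ran from -0.24 to 1.82 when a library was left out. Of 91 alternative fold changes of the 10 genes, 84 moved by less than the spread between replicates, 5 moved further and 2, both of Cxcl1, changed sign.

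Replicate numbers were shared between genotypes, but same-numbered libraries deviated together with correlations of -0.063, 0.232 and 0.149, so the numbers were not taken to pair them. With the replicate block 0 of the 7 tested genes were called, and 16 genes of the table were called higher. Of the 7, 5 were higher past the looser lines, beside 2.75% of all tested genes. The cause of these changes was not tested.

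With 1 to 11 reads in all of the Aqp5+/+ libraries for Ngp, Camp, Mpo and Ltf, depth leaves these ratios at least as uncertain as their counting intervals. Those intervals leave out the spread between libraries. For the rest, 3 libraries a genotype with Aqp5-/- replicate 3 apart set the limit.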

Other observations

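Some genes of the lists, picked out after their values were seen, had most of their reads in Aqp5-/- replicate 3. Olfm4, which marks a subset of neutrophils and also intestinal and ductal epithelium, had 4, 0 and 0 counts in Aqp5+/+ and 0, 6 and 157 in Aqp5-/-. Clec4e, the receptor Mincle, had 5, 4 and 2 against 4, 10 and 299. Il1r2, the decoy receptor for interleukin 1, had 0, 0 and 4 against 5, 5 and 176. Krt19, a keratin of bile duct cells, had 14, 6 and 21 against 4, 39 and 524, and F13a1, a coagulation factor chain of monocytes and platelets, 49, 3 and 28 against 57, 23 and 956. Of the 10 genes, S100a8, S100a9, Retnlg and Cxcr2 also had most of their reads in Aqp5-/- replicate 3, at 563, 734, 120 and 157 counts. Ngp, Camp, Ltf and Mpo were not among such genes. Aqp5-/- replicate 3 held 50, 1, 37 and 22 of their reads and the other Aqp5-/- libraries 26 to 39, 3 to 6, 27 to 28 and 3 to 36. Whether that liver differed in neutrophils, in other cells or in handling was not tested.

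Aqp5+/+ replicate 2 lay at the other end for several genes. Lcn2 had 454 counts there and 4586 and 20777 in the other Aqp5+/+ libraries, Prtn3 2 against 167 and 378, and Cxcl1 40 against 344 and 1455, beside library totals of 7130831 against 11972852 and 13526632.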
